A study of Homo sapiens with 54 samples.

Results

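The lysosome genes described here were 44 named genes, taken as a list of proteins of the lysosome rather than from their values. Of these, 43 had a probe set carrying their symbol alone, out of 18417 genes on the arrays, and SORT1 was not analysed here. Each gene was followed in every transfection and in both RNA fractions of H4 cells, an established human cell line with a glioneuronal phenotype, per the labels. Each culture received 1 of 9 small RNAs and was harvested 48 h afterwards. The mimics of miR-103 and miR-107, and those of miR-16 with miR-195, share most of their seed letters. The other tested RNAs were miR-320, miR-15b* and, as non-physiological variants, miR-107-mut1 with miR-107-mut2, while Ambion's negative control miRNA served as the control. Sample titles name miR-15b, described as an antisense control, where the study's design has miR-15b*. Each culture gave an immunoprecipitate (IP) made with the anti-Argonaute antibody 2A8 and the total RNA of the lysate, with 3 biological replicates per condition, 54 Affymetrix Human Gene 1.0 ST arrays in all. Every group came from the same line and carried a transfected RNA, the control included, and no untransfected culture is among the arrays.

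Lysosomes are the acidic compartments in which cells break down proteins, glycans, glycolipids and sphingolipids. A proton pump, the V-ATPase, acidifies the lumen. Soluble hydrolases work inside it, and heavily glycosylated membrane proteins such as LAMP1 line its wall. Many of the genes carry an E-box-like element bound by the transcription factor TFEB, and loss of single hydrolases causes lysosomal storage diseases, many of which affect the brain. MicroRNAs guide Argonaute to messages that pair with bases 2 to 8 of the microRNA, the seed, so a bound message can be enriched in an Argonaute IP and lowered in the lysate.

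The mature sequences of 5 of the transfected RNAs are shown because the RNAs are compared by their seeds. They are the RefSeq sequences (GRCh38.p14) of hsa-miR-103a-3p, hsa-miR-107, hsa-miR-16-5p, hsa-miR-195-5p and hsa-miR-15b-3p, written 5′ to 3′ with the seed in capitals.
miR-103: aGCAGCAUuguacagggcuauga
miR-107: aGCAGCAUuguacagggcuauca
miR-16: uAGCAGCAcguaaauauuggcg
miR-195: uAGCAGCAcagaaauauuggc
miR-15b*: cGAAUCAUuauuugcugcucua
The miR-103 and miR-107 sequences share the seed GCAGCAU and differ by 1 base, C22G, with the miR-107 base given before the position counted from the 5′ end and the miR-103 base after it. The miR-16 and miR-195 sequences share the seed AGCAGCA, which holds the same GCAGCA run shifted by 1 position, and miR-15b* has the seed GAAUCAU. In GRCh38.p14, hsa-miR-107 lies at chr10:89592756-89592778 on the minus strand, and hsa-miR-195-5p at chr17:7017667-7017687 on the minus strand. The sequences of miR-107-mut1 and miR-107-mut2 were not used here.

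Values are log2 intensities made by RMA. The IP arrays and the lysate arrays appear to have been normalized apart, so each fraction was fitted with its own 27 arrays and 9 groups, and levels are never set between fractions. Changes are differences of log2 means ± SE from limma, and calls were made at a Benjamini-Hochberg adjusted p under 0.05 over 11050 tested genes. Replicate number was not in these fits. Adding it as a block moved 15 of 24 counts of called lysosome genes, as given in the last section. Across the arrays the SD over genes ran from 1.09 to 1.58 in the IP and from 1.44 to 1.53 in the lysates. Most arrays correlated with the others of their fraction at a median of 0.937 to 0.963 in the IP and 0.977 to 0.987 in the lysates. Standing apart were miR-15b* replicate 1 (0.858) and miR-107 replicate 2 (0.926) in the IP, and miR-15b* replicate 2 (0.942), miR-16 replicate 2 (0.951) and miR-103 replicate 2 (0.966) in the lysates. In the lysates the 8 neuronal markers with a value ranked between percentile 16.1 (STMN2) and 56.5 (MAP2) among all genes, and the 3 oligodendrocytic ones between 17.7 and 45.4. Of the 8 astrocytic and glial markers, VIM (98.8) and SOX9 (81.2) ranked high and the rest lay between 6.34 (S100B) and 42.5 (SLC1A3). Of the 7 blood-cell markers, CD68, which is itself a lysosomal membrane protein, ranked at 89.3 and the rest between 1.89 (PTPRC) and 26.2 (CSF1R). The number of arrays limits the precision, and p-values measure the spread between cultures of 1 line. Where the groups of a called gene are said not to overlap, the same arrays gave the call. Such statements describe the values and add no support, and the share of all genes without overlap was not counted.

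Of the 43 lysosome genes, 39 passed the filter that left out the lowest 40% of genes by mean over all arrays. The cysteine proteases CTSK and CTSS, the glycosidase MANBA and the proton pump subunit ATP6V1H fell below it and were not tested. The filter mean covers both fractions, so a gene of low IP level could pass through its lysate level. TMEM106B and ATP6V1A, for instance, had IP means of 4.017 and 3.534, under the filter value of 5.258. Ranks within an array allow each gene to be followed from lysate to IP, although probe sets differ in brightness, so they do not measure amounts of message. The median rank percentile of the 43 genes was 78.9 in the IP and 89.2 in the lysates, and the rank was lower in the IP for 31 genes and higher for 12. CTSZ, a cathepsin with carboxypeptidase activity, moved furthest up, at percentile 71.8 in the IP and 31.8 in the lysates. TFEB, CLN3, SMPD1 and IDUA also ranked higher in the IP, by 17.4, 12.2, 11.7 and 11.4 percentiles. The largest drops were those of ATP6V1H, TMEM106B, ATP6V1A, ASAH1 and LIPA, whose rank changes ran from -37.8 to -35.8 percentiles. These ranks carry no test. The rank changes were not counted over all genes or over genes of like lysate rank, so nothing particular to lysosome genes was read from them.

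**Figure D1:**
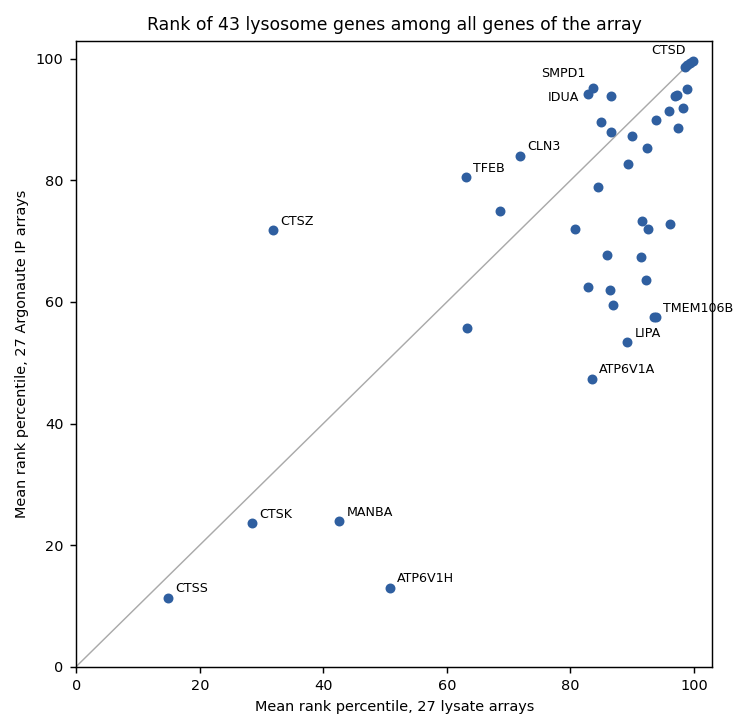
Mean rank percentile of each of 43 lysosome genes among all 18417 genes, over 27 Argonaute IP arrays (vertical axis) and 27 lysate arrays (horizontal axis); the grey line marks equal rank. Points below the line, 31 of 43, ranked lower in the IP; CTSZ lies furthest above it.

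In the lysates, 15 of the 39 tested lysosome genes were called in at least 1 of the 8 comparisons with the negative control, and 24 in none. The share of all genes called in at least 1 of the 8 was not computed, so nothing particular to lysosome genes is read from that count. With miR-103, 6 of 39 were called (5 higher, 1 lower), against 17.2% of all genes, 8.37% higher and 8.88% lower. The count with miR-107 was also 6 (5 higher, 1 lower; 14.9% of all genes, 6.51% higher and 8.35% lower), with miR-16 it was 7 (5 higher, 2 lower; 17% of all genes, 9.56% higher and 7.45% lower), and with miR-195 it was 6 (4 higher, 2 lower; 14% of all genes, 6.82% higher and 7.22% lower). Fewer genes were called with miR-320, 2 (1 higher, 1 lower; 2.96% of all genes, 1.46% higher and 1.5% lower), and with miR-15b*, 4 (3 higher, 1 lower; 7.54% of all genes, 3.5% higher and 4.04% lower). The altered molecules gave 6 calls each, 3 higher and 3 lower with miR-107-mut1 (8.77% of all genes, 3.33% higher and 5.44% lower) and 4 higher and 2 lower with miR-107-mut2 (13.8% of all genes, 6.23% higher and 7.58% lower). As a share of the 39 genes these counts lay between 5.13% (miR-320) and 17.9% (miR-16), near the share of all genes called in most comparisons, and nothing particular to lysosome genes was read from them. The median change of the 39 genes was 0.13 with miR-103, 0.10 with miR-107, 0.17 with miR-16 and 0.10 with miR-195, against 0.03, 0.01, 0.05 and 0.01 over all genes tested. With miR-320 it was -0.14, against 0 over all genes. Single arrays moved some counts: 12 genes were called with miR-16 without miR-16 replicate 3, 3 with miR-103 without miR-103 replicate 1 or control replicate 3, 3 with miR-107-mut1 without its replicate 3 or control replicate 2, 1 with miR-320 without its replicate 2 or control replicate 1 or 3, and 1 or 2 with miR-15b* without its replicate 1 or 3 or any 1 control array. Without the arrays that stand apart, 10 genes were called with miR-103, 10 with miR-195, 7 with miR-15b*, 10 with miR-107-mut1 and 11 with miR-107-mut2. The share of all genes called is not given for these fits, so their counts are not read as particular to lysosome genes. In bulk RNA, fewer cells with a message and less message per cell cannot be told apart.

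**Figure D2:**
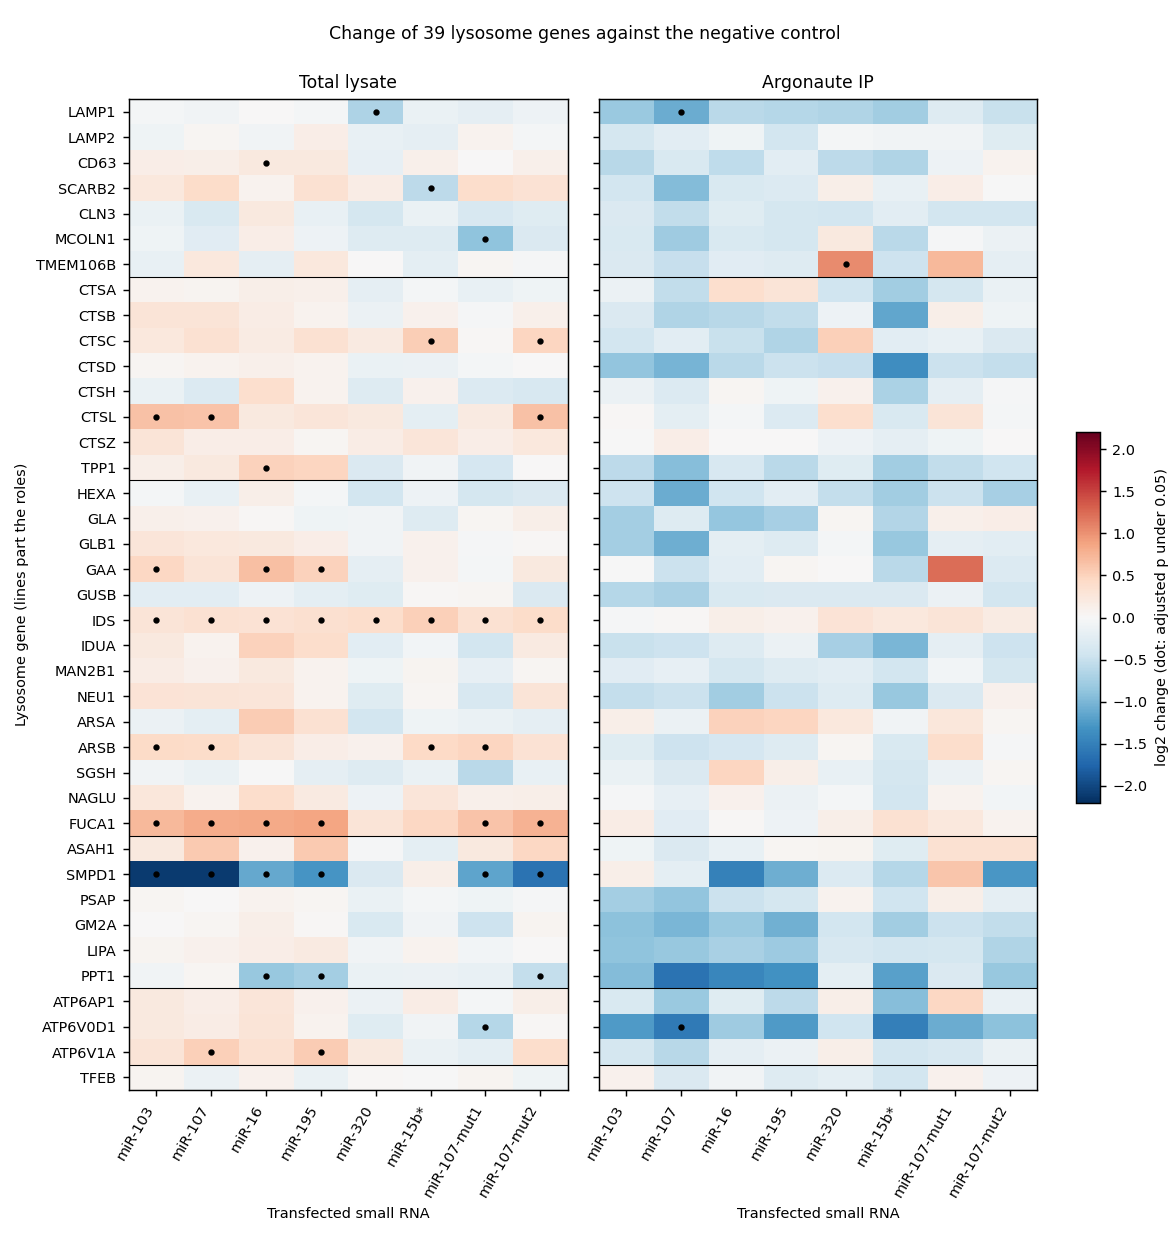
Change of each of 39 lysosome genes against the negative control (colour, log2 scale, red higher and blue lower) for 8 transfected RNAs in the lysate (left) and the Argonaute IP (right); dots mark adjusted p under 0.05 and horizontal lines part the roles. SMPD1 is blue and marked in 6 lysate columns, IDS is marked in all 8, and the IP holds 3 marks.

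Among the lipid hydrolases and their activators, SMPD1 fell in 6 lysates and PPT1 in 3, and the other 4 tested genes of this role (ASAH1, PSAP, GM2A and LIPA) were called in no lysate against the control. SMPD1 encodes acid sphingomyelinase, which cuts sphingomyelin to ceramide and whose loss causes Niemann-Pick disease types A and B. Its lysate level was 9.02, 9.02 and 8.98 with miR-103, 9.44, 8.59 and 9.01 with miR-107, 10.17, 10.13 and 9.64 with miR-16, and 10.27, 9.40 and 9.75 with miR-195, against 11.31, 10.96 and 11.07 with the negative control. None of these groups overlapped the control. It was 10.91, 10.68 and 10.81 with miR-320, 11.37, 11.32 and 11.02 with miR-15b*, 10.04, 9.96 and 9.84 with miR-107-mut1, and 9.84, 9.16 and 9.44 with miR-107-mut2. Both altered molecules thus lay below every control array, the miR-320 arrays lay just below the lowest control array, and miR-15b* overlapped the control. SMPD1 was 4.30-fold lower with miR-103 (-2.10 ± 0.21, adjusted p = 3e-07) and 4.28-fold lower with miR-107 (-2.10 ± 0.21, adjusted p = 2.5e-07). The falls were 2.19-fold with miR-16 (adjusted p = 0.00055), 2.47-fold with miR-195 (adjusted p = 0.00013), 2.24-fold with miR-107-mut1 (adjusted p = 0.00077) and 3.10-fold with miR-107-mut2 (adjusted p = 1e-05). With miR-320 and miR-15b* the changes were -0.31 (adjusted p = 0.71) and 0.13 (adjusted p = 0.71). Among the 39 genes SMPD1 also had the widest range of lysate group means, 2.23.

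PPT1 encodes palmitoyl-protein thioesterase, which removes fatty acids from proteins and is lost in infantile neuronal ceroid lipofuscinosis. Its lysate level was 11.68, 11.33 and 11.24 with miR-16, 11.63, 11.45 and 11.49 with miR-195 and 11.87, 11.60 and 11.76 with miR-107-mut2, against 12.38, 12.17 and 12.22 with the negative control. All 9 of these arrays lay below the lowest control array. With miR-103 it was 12.31, 12.14 and 12.13 and with miR-107 12.36, 12.26 and 12.27. The miR-107 arrays lay within the control range, and 2 of the 3 miR-103 arrays lay just below the lowest control array. PPT1 fell 1.79-fold with miR-16 (-0.84 ± 0.12, adjusted p = 2.6e-05), 1.67-fold with miR-195 (-0.74 ± 0.12, adjusted p = 0.00012) and 1.43-fold with miR-107-mut2 (-0.52 ± 0.12, adjusted p = 0.0042). Its changes with miR-103 and miR-107 were -0.07 (adjusted p = 0.73) and 0.04 (adjusted p = 0.92). The lysate calls of SMPD1 and PPT1 against the control held in each of the alternatives run and with each array left out in turn.

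**Figure D3:**
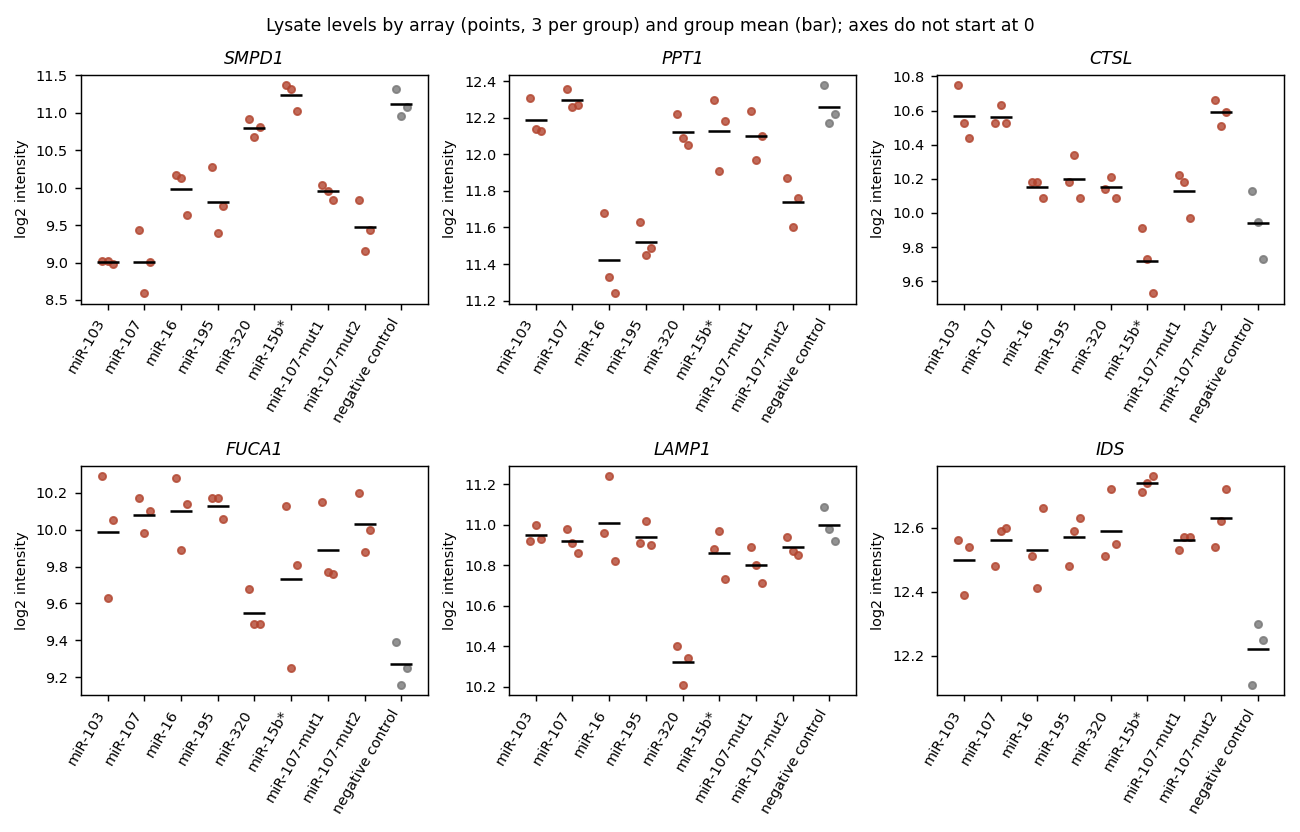
Lysate log2 intensity of 6 lysosome genes in each array (points, 3 per group) with the group mean (bar), the negative control in grey at the right; the axes do not start at 0. SMPD1 is lowest with miR-103 and miR-107, PPT1 with miR-16 and miR-195, LAMP1 with miR-320, and IDS is lowest in the control.

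The sugar hydrolases and sulfatases gave only rises against the control in the lysates, 4 of 14 with miR-103, 3 each with miR-107, miR-16, miR-195 and miR-107-mut1, 2 each with miR-15b* and miR-107-mut2, and 1 with miR-320. Over all genes, 8.37% were called higher and 8.88% lower with miR-103, 6.51% and 8.35% with miR-107, 9.56% and 7.45% with miR-16, and 6.82% and 7.22% with miR-195. The higher and lower shares were 3.33% and 5.44% with miR-107-mut1, 3.5% and 4.04% with miR-15b*, 6.23% and 7.58% with miR-107-mut2, and 1.46% and 1.5% with miR-320. FUCA1, the alpha-fucosidase that trims fucose from glycoproteins, was 10.29, 9.63 and 10.05 with miR-103, 10.17, 9.98 and 10.10 with miR-107, 10.28, 9.89 and 10.14 with miR-16, and 10.17, 10.17 and 10.06 with miR-195, against 9.39, 9.16 and 9.25 with the negative control. It was 9.68, 9.49 and 9.49 with miR-320, 10.13, 9.25 and 9.81 with miR-15b*, 10.15, 9.77 and 9.76 with miR-107-mut1, and 10.20, 9.88 and 10 with miR-107-mut2. Only the miR-15b* group overlapped the control. FUCA1 rose 1.65-fold with miR-103 (adjusted p = 0.0066), 1.76-fold with miR-107 (adjusted p = 0.0023), 1.79-fold with miR-16 (adjusted p = 0.002), 1.82-fold with miR-195 (adjusted p = 0.0015), 1.54-fold with miR-107-mut1 (adjusted p = 0.029) and 1.69-fold with miR-107-mut2 (adjusted p = 0.0051). Its changes with miR-320 and miR-15b* were 0.28 (adjusted p = 0.66) and 0.46 (adjusted p = 0.12). The miR-107-mut1 call was lost without miR-107-mut1 replicate 1 or 3, without control replicate 2 or 3, and against the mean of 3 controls (the negative control, miR-320 and miR-15b*).

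IDS, the iduronate sulfatase lost in Hunter syndrome, was called higher in all 8 lysates, by 0.28 to 0.52. Its control level was 12.11, 12.30 and 12.25, and the 8 other group means lay between 12.50 and 12.74, so no group overlapped the control. The largest rise was with miR-15b*, at 12.71, 12.74 and 12.76 (1.43-fold, adjusted p = 0.00046), and the smallest with miR-103, at 12.56, 12.39 and 12.54 (1.21-fold, adjusted p = 0.031). Against the mean of 3 controls the IDS change was -0.02 with miR-103, 0.04 with miR-107, 0.01 with miR-16, 0.05 with miR-195, 0.04 with miR-107-mut1 and 0.11 with miR-107-mut2, and none was called. A second IDS probe set also had its lowest lysate mean in the control, 11.60 in the lowest transfected group against 11.37 in the control. IDS has a near-identical pseudogene copy, so its signal may be shared with it. Without control replicate 1 the IDS calls with miR-103, miR-107, miR-16, miR-195, miR-320 and miR-107-mut1 were lost. Calls were also lost without control replicate 3 (miR-103 and miR-320), miR-103 replicate 1 or 3, miR-16 replicate 3, miR-320 replicate 2, and miR-107-mut1 replicate 2 or 3. Fits on only the arrays compared lost the calls with miR-103, miR-16, miR-320 and miR-15b*, the mean of probe sets those with miR-103 and miR-16, and cyclic loess that with miR-103.

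GAA, the acid alpha-glucosidase that degrades glycogen and is lost in Pompe disease, was 10.72, 10.99 and 10.67 with miR-103, 10.99, 11.26 and 10.71 with miR-16, and 11.01, 10.70 and 10.78 with miR-195, against 10.53, 10.18 and 10.28 with the negative control. It rose 1.38-fold with miR-103 (adjusted p = 0.045), 1.58-fold with miR-16 (adjusted p = 0.005) and 1.42-fold with miR-195 (adjusted p = 0.033). None of these 3 groups overlapped the control. With miR-107 it was 10.80, 10.48 and 10.56, a change of 0.28 that was not called. ARSB, the sulfatase that acts on dermatan sulfate, was 10.23, 10.12 and 10 with miR-103, 10.26, 9.96 and 10.09 with miR-107, 10.21, 10.16 and 10.05 with miR-15b*, and 10.28, 10.09 and 10.16 with miR-107-mut1, against 9.84, 9.53 and 9.71 with the control. Those 4 groups did not overlap the control, and the rises were 1.34-fold (adjusted p = 0.02), 1.33-fold (adjusted p = 0.025), 1.36-fold (adjusted p = 0.028) and 1.4-fold (adjusted p = 0.013). These calls rested on few arrays. The GAA call with miR-103 was lost without any 1 of the miR-103 arrays, and with miR-195 without miR-195 replicate 1 or 3, and both were lost without control replicate 2 or 3. The ARSB call was lost without control replicate 2 in all 4 comparisons and without control replicate 3 in all but miR-107-mut1, as well as without miR-103 replicate 1 or 2, miR-107 replicate 1 or 3, miR-15b* replicate 1 or 2, or miR-107-mut1 replicate 1. Fits on only the arrays compared lost the GAA calls with miR-103 and miR-16 and the ARSB calls with miR-103 and miR-15b*. The GAA call with miR-103 was also lost with no filter and without the arrays that stand apart, and the ARSB calls with miR-103, miR-107 and miR-107-mut1 against the mean of 3 controls.

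The cathepsins and peptidases likewise gave only rises among their lysate calls, of CTSL in 3 comparisons, CTSC in 2 and TPP1 in 1, and CTSA, CTSB, CTSD, CTSH and CTSZ were called in none. CTSL encodes cathepsin L, a cysteine endopeptidase of broad specificity. It was 10.75, 10.53 and 10.44 with miR-103, 10.53, 10.63 and 10.53 with miR-107 and 10.66, 10.51 and 10.59 with miR-107-mut2, against 10.13, 9.95 and 9.73 with the negative control. With miR-16 it was 10.18, 10.18 and 10.09, with miR-195 10.18, 10.34 and 10.09, and with miR-107-mut1 10.22, 10.18 and 9.97. The first 3 groups lay above every control array, while the other 3 overlapped the control. CTSL rose 1.55-fold with miR-103 (0.64 ± 0.11, adjusted p = 0.00036), 1.54-fold with miR-107 (0.63 ± 0.11, adjusted p = 0.00039) and 1.57-fold with miR-107-mut2 (0.65 ± 0.11, adjusted p = 0.00034), and these calls held in each alternative run. Its changes with miR-16 and miR-195 were 0.21 (adjusted p = 0.23) and 0.26 (adjusted p = 0.15).

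CTSC, the dipeptidyl peptidase that activates serine proteases of immune cells, rose 1.45-fold with miR-15b* (12.11, 11.56 and 11.89, adjusted p = 0.04) and 1.39-fold with miR-107-mut2 (11.90, 11.69 and 11.79, adjusted p = 0.048), against 11.42, 11.13 and 11.39 in the control. TPP1, the tripeptidyl peptidase lost in late infantile ceroid lipofuscinosis, rose 1.42-fold with miR-16 (12.14, 12.16 and 11.68 against 11.65, 11.41 and 11.41, adjusted p = 0.049). Neither gene overlapped the control in these comparisons, but the adjusted p-values lay just under the threshold. The CTSC call with miR-107-mut2 was lost without any 1 of the 6 arrays compared, and with miR-15b* without miR-15b* replicate 1 or 3 or any 1 control array. The TPP1 call was lost without miR-16 replicate 1 or 2 or control replicate 2 or 3. The TPP1 call was further lost with no filter, in fits on only the arrays compared and without the arrays that stand apart, that of CTSC with miR-15b* in fits on only the arrays compared, and that with miR-107-mut2 with no filter and against the mean of 3 controls.

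Among the 7 membrane proteins, LAMP1 fell with miR-320, MCOLN1 with miR-107-mut1 and SCARB2 with miR-15b*, and CD63 rose with miR-16. LAMP1, a standard marker of the lysosomal membrane, was 10.40, 10.21 and 10.34 with miR-320, against 11.09, 10.98 and 10.92 with the negative control, a 1.60-fold fall (-0.68 ± 0.10, adjusted p = 0.00025). In the 7 other transfected groups its mean ran from 10.80 to 11.01. The miR-320 arrays were thus the 3 lowest of the fraction. MCOLN1, the mucolipin calcium channel, was 9.37, 9.76 and 9.48 with miR-107-mut1, against 10.38, 10.44 and 10.43 with the control, a 1.85-fold fall (-0.88 ± 0.17, adjusted p = 0.0018). Both calls held in each alternative run and with each array left out.

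SCARB2, the receptor that carries glucocerebrosidase to lysosomes, was 10.28, 9.71 and 10.09 with miR-15b*, against 10.52, 10.64 and 10.66 with the control, a 1.49-fold fall (adjusted p = 0.044). CD63, a tetraspanin, was 12.02, 12.12 and 11.93 with miR-16, against 11.79, 11.82 and 11.79 with the control, a 1.17-fold rise (adjusted p = 0.045). Both pairs of groups were apart, but each call was lost without any 1 control array. The SCARB2 call was also lost without miR-15b* replicate 2 or 3, and the CD63 call without miR-16 replicate 1 or 2. Both were lost with no filter and in fits on only the arrays compared, and CD63 also without the arrays that stand apart. LAMP2, CLN3, which is lost in juvenile ceroid lipofuscinosis, and TMEM106B, a risk gene for frontotemporal dementia, were called in no lysate.

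Of the 3 tested proton pump genes, ATP6V1A, the catalytic subunit, rose with miR-107 and miR-195, and ATP6V0D1, a subunit of the membrane sector, fell with miR-107-mut1. ATP6V1A was 10.11, 10.33 and 10.19 with miR-107 and 10.11, 10.39 and 10.25 with miR-195, against 9.54, 9.79 and 9.74 with the control. The rises were 1.43-fold (adjusted p = 0.033) and 1.47-fold (adjusted p = 0.023), with no overlap. ATP6V0D1 was 11.22, 11.21 and 11.18 with miR-107-mut1, against 11.93, 11.79 and 11.77 with the control, a 1.54-fold fall (-0.63 ± 0.17, adjusted p = 0.024). Its call was lost without any 1 of the 6 arrays, the ATP6V1A call with miR-107 without miR-107 replicate 2 or 3 or any 1 control array, and that with miR-195 without miR-195 replicate 2 or 3 or control replicate 1 or 3. TFEB, the transcription factor that drives many lysosome genes, was called in no comparison, and its lysate changes against the control ran from -0.14 (miR-195) to 0.09 (miR-16).

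The 2 seeds were set against each other, miR-103 and miR-107 over miR-16 and miR-195. In the lysates 5 of 39 lysosome genes were called (2 higher, 3 lower), against 10% of all genes, 3.57% higher and 6.47% lower. PPT1 was 1.71-fold higher (mean 12.25 against 11.47, 0.78 ± 0.08, adjusted p = 1.9e-06) and CTSL 1.31-fold higher (10.57 against 10.18, adjusted p = 0.0021), with the 6 arrays of each side apart for both genes. SMPD1 was 1.85-fold lower (9.01 against 9.89, -0.89 ± 0.15, adjusted p = 0.00033), although 1 array on each side overlapped, at 9.44 with miR-107 and 9.40 with miR-195. ARSA, the sulfatase lost in metachromatic leukodystrophy, was 1.53-fold lower (8.70 against 9.32, adjusted p = 0.015), and CTSH, an aminopeptidase cathepsin, 1.36-fold lower (8.36 against 8.81, adjusted p = 0.039), both with overlap. The CTSH call was lost without any 1 array of miR-103, without miR-107 replicate 2 or 3, miR-16 replicate 1 or 2, or miR-195 replicate 1 or 3, while the other 4 calls held with each array left out. CTSH also lost its call after cyclic loess, with no filter, in the fit on only the arrays compared and without the arrays that stand apart, and ARSA in the fit on only the arrays compared.

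Against miR-107-mut1, 8 of 39 lysosome genes differed with miR-107 in the lysates (7 higher, 1 lower), where 13.5% of all genes were called, 6.96% higher and 6.51% lower. The median change of the 39 genes was 0.19, against 0.01 over all genes. Of the 3 tested proton pump genes, ATP6V0D1 was 1.74-fold higher (12.14, 11.96 and 11.91 against 11.22, 11.21 and 11.18, adjusted p = 0.0025) and ATP6V1A 1.67-fold higher (10.11, 10.33 and 10.19 against 9.27, 9.70 and 9.44, adjusted p = 0.0028). The third, ATP6AP1, was not called, with a change of 0.2. NEU1, a sialidase, was 1.56-fold higher (11.44, 11.35 and 11.21 against 10.49, 10.87 and 10.72, adjusted p = 0.0093), and MCOLN1 1.55-fold higher (adjusted p = 0.016). TPP1 was 1.5-fold higher (adjusted p = 0.027), GM2A, the activator of ganglioside GM2 breakdown, 1.41-fold higher (adjusted p = 0.048) and CTSL 1.36-fold higher (adjusted p = 0.011). For ATP6V0D1, ATP6V1A, NEU1, MCOLN1, TPP1 and GM2A the miR-107-mut1 group had the lowest mean of all lysate groups, the control included. SMPD1 was 1.91-fold lower with miR-107 than with miR-107-mut1 (adjusted p = 0.0034). None of the 8 genes overlapped between these groups, which adds no support, since the same arrays gave the calls. Without miR-107 replicate 2 or without miR-107-mut1 replicate 3, 4 were called. The calls of ATP6V0D1, ATP6V1A and SMPD1 held with each array left out. The GM2A call was lost without any 1 of the 6 arrays, after cyclic loess and with no filter, that of NEU1 without miR-107-mut1 replicate 1, MCOLN1 without miR-107 replicate 2 or miR-107-mut1 replicate 1 or 3, TPP1 without miR-107 replicate 1 or 2 or miR-107-mut1 replicate 2 or 3, and CTSL without miR-107 replicate 2 or miR-107-mut1 replicate 3.

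Against miR-107-mut2 no lysosome gene was called with miR-107 in the lysates by limma, 2 had an unadjusted p under 0.05, and 0.0814% of all genes were called. A lysosome gene was called there with the replicate block and without the arrays that stand apart. The largest member differences were PPT1, 0.55 ± 0.12 (adjusted p = 0.13), and SMPD1, -0.47 ± 0.21 (adjusted p = 1). PPT1 did not overlap between those groups, at 12.36, 12.26 and 12.27 with miR-107 against 11.87, 11.60 and 11.76 with miR-107-mut2.

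In the Argonaute IP, 3 of the 39 lysosome genes were called in any comparison with the control, LAMP1 and ATP6V0D1 lower with miR-107 and TMEM106B higher with miR-320. The share of all genes called in any of these comparisons was not computed. With miR-107 the 2 calls stood against 3.83% of all genes called, 0.217% higher and 3.61% lower. An unadjusted p under 0.05 was reached by 16 of 39, and the share of all genes at that cutoff was not counted. LAMP1 was 5.41, 4.94 and 4.88 with miR-107, against 6.17, 6.19 and 6.19 with the negative control, a 2.15-fold fall (-1.10 ± 0.27, adjusted p = 0.022). The 7 other transfected groups also had lower LAMP1 means, from 5.37 to 5.89, with no call. ATP6V0D1 was 6.60, 6.16 and 5.41 with miR-107, against 7.54, 7.43 and 7.85 with the control, a fall of 1.55 ± 0.44 on the log2 scale (adjusted p = 0.048). TMEM106B was 5.01, 5.15 and 5.11 with miR-320, against 4, 3.57 and 4.57 with the control, a rise of 1.04 ± 0.24 (adjusted p = 0.016), where 2.21% of all genes were called, 2.12% higher and 0.0905% lower. None of the 3 pairs of groups overlapped. The LAMP1 and ATP6V0D1 calls were lost without miR-107 replicate 2 or 3 or any 1 control array, and that of TMEM106B without miR-320 replicate 2 or 3 or control replicate 1 or 2. The ATP6V0D1 change was -0.90 after cyclic loess (adjusted p = 0.065) and -0.90 against the mean of 3 controls (adjusted p = 0.11), and its call was also lost with no filter (adjusted p = 0.06) and with trended and robust moderation (adjusted p = 0.057). The LAMP1 change was -0.63 against the mean of 3 controls (adjusted p = 0.075), and its call was also lost without the arrays that stand apart (adjusted p = 0.057). The TMEM106B call was lost in the fit on only the arrays compared.

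No lysosome gene was called by limma in the IP with miR-103, miR-16, miR-195, miR-15b*, miR-107-mut1 or miR-107-mut2, where 2.03%, 1.26%, 0.67%, 0.217%, 0.742% and 0.344% of all genes were called. An unadjusted p under 0.05 was reached by 7, 5, 6, 8, 3 and 2 of the 39 genes in those comparisons. The share of all genes at that cutoff was not counted, here or in the other comparisons. The shares given are for adjusted calls, so nothing particular to lysosome genes is read from the unadjusted counts. These calls and counts come from the fit without replicate number. With replicate number added as a block, lysosome genes were called in each of those comparisons, and more were called with miR-107, as given in the last section. The miR-15b* count stood on 1 array, since 14 genes were called without miR-15b* replicate 3, and with miR-16 1 was called without miR-16 replicate 3. For these 2 fits the share of all genes called is not given, so nothing particular to lysosome genes is read from them. Most members lay below the control all the same, 34 of 39 with miR-103, 37 with miR-107, 31 with miR-16, 32 with miR-195 and 37 with miR-15b*. Their median change was -0.34, -0.48, -0.33, -0.30 and -0.46 in these comparisons, against -0.09, -0.19, -0.08, -0.07 and -0.17 over all genes. The share below the control was not counted over all genes or over genes of like intensity. Nothing particular to lysosome genes is therefore read from the counts below the control. The SD over genes of the IP arrays, averaged per group, was 1.35 with miR-103, 1.30 with miR-107, 1.36 with miR-16, 1.38 with miR-195 and 1.32 with miR-15b*, against 1.48 with the control. The members' mean was 5.48, 5.29, 5.53, 5.51 and 5.32 in those groups, against 5.86 with the control. With miR-320, miR-107-mut1 and miR-107-mut2 the SD was 1.54, 1.49 and 1.41 and the members' mean 5.77, 5.83 and 5.62. After cyclic loess normalization the median changes with miR-103, miR-107, miR-16, miR-195 and miR-15b* were -0.19, -0.14, -0.14, -0.21 and -0.20, against 0.02, 0.01, 0.02, 0.02 and 0.01 over all genes. The part of the array spread in the members' lower IP values was not tested. By role, the median with miR-103 and miR-107 was -0.81 and -0.85 for the 6 lipid genes, -0.38 and -0.81 for the 3 proton pump genes, and -0.39 and -0.55 for the 7 membrane proteins. It was -0.22 and -0.42 for the 8 cathepsins and peptidases, -0.26 and -0.38 for the 14 sugar hydrolases and sulfatases, and TFEB stood at 0.09 and -0.32.

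SMPD1, the gene that fell most in the lysates, was 7.35, 8.04 and 7.35 in the IP with miR-103 and 7.04, 7.21 and 7.50 with miR-107, against 7.38, 7.04 and 7.94 with the control, changes of 0.13 (adjusted p = 0.89) and -0.21 (adjusted p = 0.78). Those groups overlapped the control. With miR-16 it was 5.41, 5.87 and 6.64 and with miR-195 6.26, 6.06 and 6.85, both below every control array (-1.48, adjusted p = 0.08, and -1.07, adjusted p = 0.31). In the IP, SMPD1 was thus 7.41 with miR-103 and miR-107 against 6.18 with miR-16 and miR-195, a difference of 1.23 ± 0.29 that missed the threshold (adjusted p = 0.068). In the main fit no lysosome gene was called in that comparison, where 4 had an unadjusted p under 0.05 and 0.38% of all genes were called by limma. A lysosome gene was called there with the replicate block, after cyclic loess and in the fit on only the arrays compared. The lack of a call between the seeds thus depends on the fit. PPT1 had lower IP means with miR-16 (5.46) and miR-195 (5.57), and also with miR-103 (5.94) and miR-107 (5.27), against 6.90 with the control, and none was called.

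**Figure D4:**
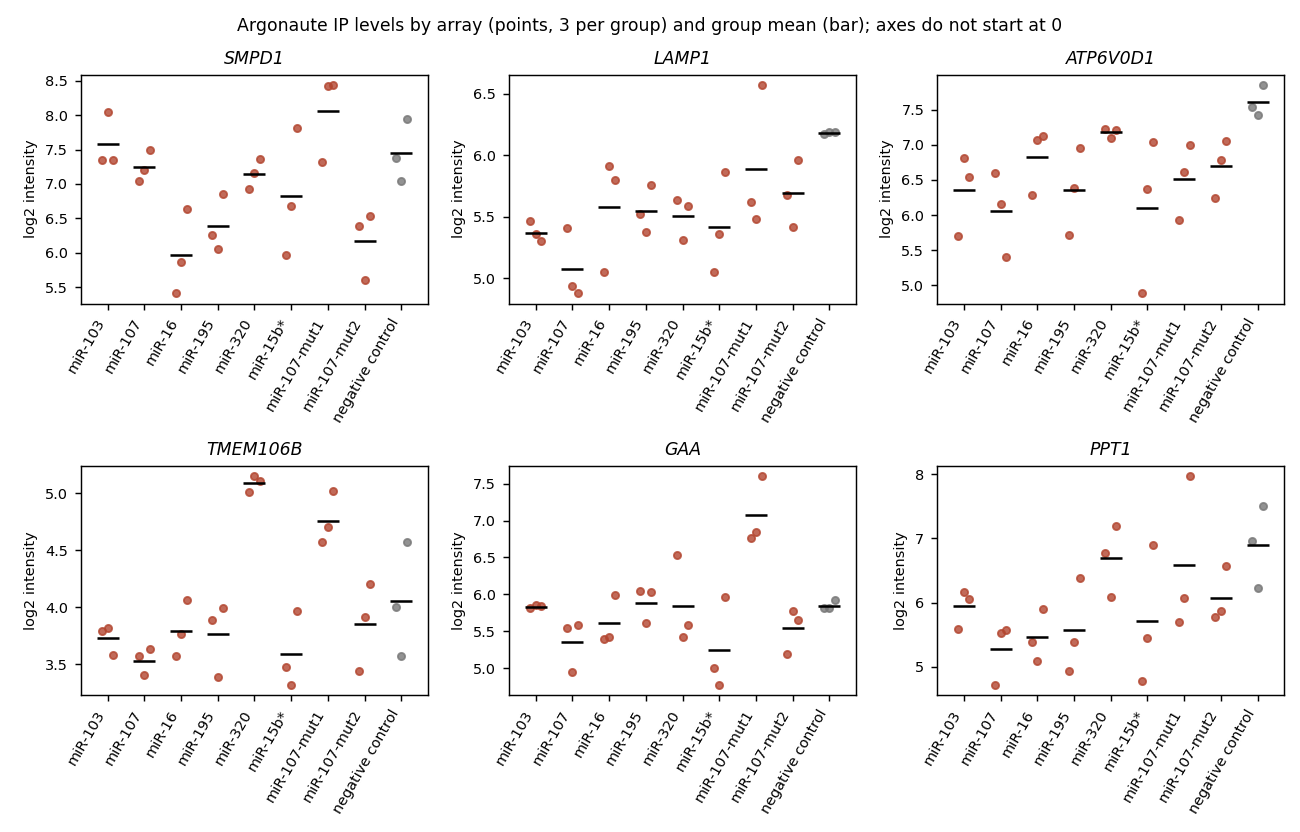
Argonaute IP log2 intensity of 6 lysosome genes in each array (points, 3 per group) with the group mean (bar), the negative control in grey at the right; the axes do not start at 0. SMPD1 overlaps the control with miR-103 and miR-107 and lies below it with miR-16 and miR-195, TMEM106B is highest with miR-320, and GAA is highest with miR-107-mut1.

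Between miR-107 and miR-107-mut1, 2 of 39 lysosome genes were called in the IP, both lower, against 5.05% of all genes, 0.19% higher and 4.86% lower. GAA was 5.55, 4.95 and 5.58 with miR-107, against 6.76, 6.85 and 7.60 with miR-107-mut1, a 3.28-fold difference (-1.71 ± 0.31, adjusted p = 0.0015). TMEM106B was 3.57, 3.40 and 3.63 against 4.57, 4.70 and 5.02 (-1.23 ± 0.24, adjusted p = 0.0035). These TMEM106B values lay under the filter value of 5.258, which the gene passed through its lysate level. The miR-107-mut1 arrays were the higher ones for both genes, without overlap, and both calls held in each alternative and with each array left out. Against the control the miR-107-mut1 change was 1.23 ± 0.31 for GAA (adjusted p = 0.07) and 0.72 ± 0.24 for TMEM106B (adjusted p = 0.36). Between miR-107 and miR-107-mut2 no lysosome gene was called in the IP by limma, 4 had an unadjusted p under 0.05, and 0.0362% of all genes were called. After cyclic loess a lysosome gene was called there.

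The change in the IP minus the change in the lysate, tested over all 54 arrays, differed for 3 of 39 lysosome genes with miR-103 and miR-107 together (1 higher, 2 lower), where 6.54% of all genes were called, 1.69% higher and 4.85% lower. SMPD1 had the value 2.06 ± 0.41 (adjusted p = 0.00069): its pooled change was -0.04 in the IP and -2.10 in the lysate. ATP6V0D1 had -1.60 ± 0.42 (adjusted p = 0.013), from -1.40 in the IP and 0.20 in the lysate. LAMP1 had -0.89 ± 0.25 (adjusted p = 0.019), from -0.96 in the IP and -0.06 in the lysate. Without miR-103 replicate 2, 6 genes were called, and without control replicate 3, 1. The SMPD1 call held with each array left out, that of ATP6V0D1 was lost without control replicate 3, and that of LAMP1 without any 1 control replicate. The median over the 39 genes was -0.62, against -0.14 over all genes, and 36 of 39 were below 0. The share of all genes below 0 was not counted. These differences cancel an additive offset between the fractions but not a difference in their scales. Each culture gave both fractions, but the fit had no term for the culture. It also used 1 spread per gene for both fractions. Over the tested members the median SD within groups was 0.43 in the IP and 0.2 in the lysates. With miR-103 and miR-107 the 3 calls held when the difference between fractions was taken per replicate number. With miR-16 and miR-195 together no lysosome gene was called by limma, 11 had an unadjusted p under 0.05 and 2.91% of all genes were called. The SMPD1 value was then -0.06 ± 0.41 (adjusted p = 0.97), from IP and lysate changes of -1.27 and -1.22, and 1 gene was called without miR-195 replicate 3 or control replicate 1. After cyclic loess, or without the arrays that stand apart, 1 gene was called as well. All of these comparisons share the control arrays.

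**Figure D5:**
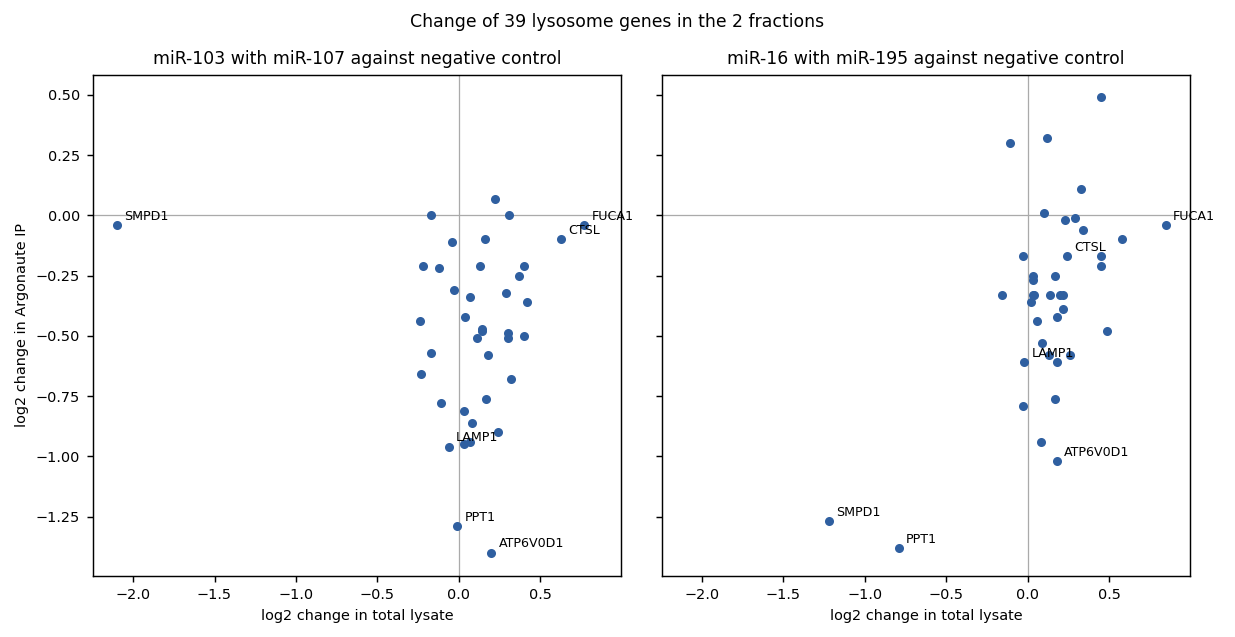
Change against the negative control of each of 39 lysosome genes in the Argonaute IP (vertical axis) and in the lysate (horizontal axis), both log2, for miR-103 with miR-107 (left) and miR-16 with miR-195 (right). SMPD1 lies at -2.10 in the lysate and -0.04 in the IP in the left panel, and at -1.22 and -1.27 in the right panel.

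The remaining lysosomal machinery was read from a second list of genes outside the 44, of 12 proton pump subunits, 20 other hydrolases and activators, 19 membrane proteins and carriers and 11 regulators, of which 10, 13, 17 and 8 were tested. In the lysates 7 of these 48 were called with miR-103 (14.6%, against 17.2% of all genes), 8 with miR-107 (16.7%, against 14.9%), 12 with miR-16 (25%, against 17%) and 10 with miR-195 (20.8%, against 14%). The count was 0 with miR-320 (0%, against 2.96%), 2 with miR-15b* (4.17%, against 7.54%), 4 with miR-107-mut1 (8.33%, against 8.77%) and 5 with miR-107-mut2 (10.4%, against 13.8%). Most of these shares were near those of all genes. PLA2G15, the lysosomal phospholipase A2, was 2.17-fold to 2.43-fold lower with miR-103, miR-107, miR-16, miR-195 and miR-107-mut2 (adjusted p from 5.9e-05 to 0.00025). NPC1, the cholesterol exporter of the lysosomal membrane, was higher with the same 5 molecules, by 0.75 with miR-107-mut2, 0.81 with miR-103, 0.87 with miR-107 and 1.26 with miR-16 and miR-195 (adjusted p from 3.7e-05 to 0.0066). ARSG, a sulfatase, was 2.48-fold higher with miR-16 and 2.41-fold higher with miR-195 (adjusted p = 1.2e-05 and 1.9e-05). It was also 1.51-fold higher with miR-103 (adjusted p = 0.02). RRAGD, a GTPase that helps recruit the mTORC1 kinase complex to lysosomes, was lower with miR-103 (-0.82, adjusted p = 0.027) and miR-16 (-0.8, adjusted p = 0.031). NAGPA, which uncovers the mannose 6-phosphate tag of hydrolases, was lower with miR-107 (-0.75, adjusted p = 0.0025). It was also lower with miR-103 (-0.59, adjusted p = 0.016) and miR-107-mut2 (-0.64, adjusted p = 0.011). LAPTM4A, a lysosomal transmembrane protein, was lower with miR-107-mut2 (-0.79, adjusted p = 4.7e-05), miR-103 (-0.62, adjusted p = 0.00055) and miR-107 (-0.56, adjusted p = 0.0013).

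With miR-15b*, SLC17A5, the sialic acid exporter, rose (0.87, adjusted p = 0.00041) and RRAGC, another GTPase of the RRAGD type, fell (-1.08, adjusted p = 0.042). The SLC17A5 rise was shared with miR-103 (0.71), miR-107 (0.7), and miR-16, miR-195 and miR-107-mut2 (0.57 each), with adjusted p from 0.0014 to 0.0095. With miR-107-mut1, NAGPA, the pump subunit ATP6V0A1 and the cystine exporter CTNS fell by 0.87, 0.71 and 0.70 (adjusted p = 0.0014, 0.0011 and 0.028). Between the seeds 9 of 48 were called (18.8%, against 10% of all genes), and with miR-103 and miR-107 ARSG was lower (-0.75, adjusted p = 0.00025) while LGMN, the asparaginyl endopeptidase, and PLBD2 were higher (0.73 and 0.64, adjusted p = 0.00061 and 0.00033). For miR-107 against miR-107-mut1, 12 of 48 were called (25%, against 13.5% of all genes, 6.96% higher), 10 of them higher, among them 4 of the 10 other pump subunits. The largest changes there were those of CTNS (0.75, adjusted p = 0.013), PLA2G15 (-0.71, adjusted p = 0.014) and ATP6V0A1 (0.70, adjusted p = 0.00066). For miR-107 against miR-107-mut2, 0 of 48 were called, against 0.0814% of all genes.

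In the IP 2 of the 48 were called with miR-103, NPC2, the luminal cholesterol carrier (-1.42, adjusted p = 0.035), and the cathepsin CTSO (-0.84, adjusted p = 0.013), a share of 4.17% against 2.03% of all genes. With miR-107 they were LAPTM4A (-2.50, adjusted p = 0.045) and NPC2 (-1.25, adjusted p = 0.048), against 3.83% of all genes, and with miR-16 LGMN (-1.45, adjusted p = 0.042) and CTSO (-0.80, adjusted p = 0.027), against 1.26%. CTSO lay low in the IP, at 2.37 with miR-103 and 2.41 with miR-16 against 3.21 with the control. The filter value of 5.258 applied to the mean over both fractions, so CTSO was tested in the IP through its lysate level. The pump subunit ATP6V0C was called with miR-320 (1.25, adjusted p = 0.028; 2.21% of all genes) and NAGPA with miR-107-mut1 (1.29, adjusted p = 0.017; 0.742% of all genes). For miR-107 against miR-107-mut1, IFI30, a thiol reductase, and NAGPA were lower (-2.02 and -1.57, adjusted p = 0.026 and 0.001; 5.05% of all genes). The IP change minus the lysate change was called for 6 of 48 with miR-103 and miR-107 (12.5%, against 6.54% of all genes), with IFI30 at -1.54, NPC2 at -1.50 and NPC1 at -1.17 (adjusted p = 0.045, 0.0019 and 0.025). With miR-16 and miR-195 it was called for 4 (8.33%, against 2.91%), with NPC2 at -1.24, ARSG at -1.06 and CLN8, a membrane protein lost in a ceroid lipofuscinosis, at -1 (adjusted p = 0.02, 0.0068 and 0.02). CLN8 was also called with miR-103 and miR-107 (-1.03, adjusted p = 0.009).

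Promoters of 31 of the 44 genes were matched by symbol in RefSeq (GRCh38.p14), from 250 bases before to 50 after the gene start, and searched for CACGTG, the core of the element through which TFEB is known to bind lysosome genes. It reads the same on both strands. It was found in 10 of 31 members (32.3%), against 8.77% of 27305 genes with a promoter in the table. The 10 were ARSB, ATP6V0D1, CD63, CLN3, CTSA, CTSD, GAA, LAMP1, MCOLN1 and NEU1. The promoters of LAMP1, GAA and MCOLN1 are shown because they held it more than 1 time and the genes were called in the lysates. LAMP1 lies at chr13:113296989-113297288 and holds it 6 times, and GAA at chr17:80101331-80101630 and MCOLN1 at chr19:7522374-7522673 hold it 2 times each, all on the plus strand, with CACGTG in capitals.
LAMP1: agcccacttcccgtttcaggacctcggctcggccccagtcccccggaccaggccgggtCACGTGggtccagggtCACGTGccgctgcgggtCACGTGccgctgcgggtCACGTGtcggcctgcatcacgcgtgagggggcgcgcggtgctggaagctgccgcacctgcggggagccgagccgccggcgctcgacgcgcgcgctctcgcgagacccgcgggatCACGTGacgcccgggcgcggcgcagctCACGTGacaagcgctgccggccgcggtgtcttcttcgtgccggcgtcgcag
GAA: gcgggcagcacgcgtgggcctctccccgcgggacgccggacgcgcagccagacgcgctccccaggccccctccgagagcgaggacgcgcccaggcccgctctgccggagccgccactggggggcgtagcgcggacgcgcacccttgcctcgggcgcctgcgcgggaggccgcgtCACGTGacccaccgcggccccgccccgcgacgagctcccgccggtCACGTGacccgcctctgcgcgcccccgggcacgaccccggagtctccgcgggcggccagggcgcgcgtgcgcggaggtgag
MCOLN1: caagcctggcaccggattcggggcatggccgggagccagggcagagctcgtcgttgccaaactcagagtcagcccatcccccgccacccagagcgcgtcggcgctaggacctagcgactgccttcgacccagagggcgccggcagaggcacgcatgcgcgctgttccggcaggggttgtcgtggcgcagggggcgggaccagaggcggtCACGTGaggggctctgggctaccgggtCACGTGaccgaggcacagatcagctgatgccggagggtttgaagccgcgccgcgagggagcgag
In the lysates LAMP1 was lower with miR-320, GAA was higher with miR-103, miR-16 and miR-195, and MCOLN1 was lower with miR-107-mut1, so no comparison with the control called more than 1 of these 3 genes. Among all 10 genes, some were called together. With miR-107-mut1 ARSB was higher and ATP6V0D1 and MCOLN1 lower, with miR-103 ARSB and GAA were higher, and with miR-16 CD63 and GAA. A match describes letters only, and binding was not measured.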

How the data were processed

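Affymetrix Human Gene 1.0 ST values of 54 arrays, from 9 small RNAs, 2 fractions and 3 biological replicates, were used as deposited. The log2 values deposited by the authors come from RMA; the submitters' processing notes name Expression Console 1.1 of Affymetrix. The log base is not given in the sources used here and was read as log2 from the range of the values. Samples were grouped by their labels, and columns of no labelled sample numbered 0. Of 33297 probe sets, 19460 carried 1 gene symbol in the platform annotation, 1754 several and 12083 none. Each of 18417 genes was represented by its probe set with the highest mean, and the 11050 genes above the lowest 40% (5.258 log2) were tested. limma 3.58.1 in R 4.3.3 (lmFit, eBayes) was fitted to 27 arrays per fraction with 9 groups, and to all 54 arrays with 18 groups for changes between fractions, with Benjamini-Hochberg adjustment over all genes tested. The scripts were tested on simulated data.

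The members, the gene lists and the tests were chosen with earlier results of these data known. Every member called in a comparison is named where at most 8 were called, and of the second list up to 3 genes per comparison, those with the largest changes. For some genes of the second list, calls shared with other RNAs are added. Alternatives were a replicate block, cyclic loess, other filters, trended and robust moderation, the mean of probe sets, fits on only the arrays compared, the mean of 3 controls, and each array left out. GUSB has pseudogene copies and IDS a near-identical one, so their signals are uncertain. SORT1 was not analysed here.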

Additional observations from a re-analysis of the deposited data

Results flagged for a closer look

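With miR-103 and miR-107 together, the change in the IP and the change in the lysate differed in an interaction test for 3 lysosome genes, with IP change minus lysate change of 2.06 for SMPD1 (limma adjusted p = 0.00069), -1.60 for ATP6V0D1 (adjusted p = 0.013) and -0.89 for LAMP1 (adjusted p = 0.019). The ATP6V0D1 call was lost without control replicate 3, and the LAMP1 call without any 1 control replicate. The fit had no term for the culture that gave both fractions.

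In 4 further cases every array of the transfected group lay below every control array in the IP and above every control array in the lysate, and this difference was not tested. They were CD63 with miR-103, at -0.61 in the IP against 0.15 in the lysate, and GLA, the alpha-galactosidase lost in Fabry disease, with miR-103, at -0.74 in the IP against 0.12 in the lysate. The others were SCARB2 with miR-107, at -0.96 in the IP against 0.40 in the lysate, and ATP6V1A with miR-107, with -0.61 in the IP and 0.52 in the lysate. Most lysosome genes lay below the control in the IP with these RNAs. The cases come from a search of every tested lysosome gene with every RNA. The share of all genes with this pattern was not computed, so nothing particular to lysosome genes is read from them.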

How the results depend on the processing

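Outside the fits that leave out 1 array, 500 of 548 calls and values of named members kept their direction and side of the threshold, 47 kept the direction but missed the threshold, and 1 reversed, IDS with miR-103 in the lysate, at -0.02 against the mean of 3 controls. With each array left out, 299 of 423 kept their call and 124 missed the threshold. The cause of these changes was not tested.

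Replicate numbers were not used as pairs in the main fits, under a rule that asked for correlated deviations in every pair of same-numbered arrays. That rule is strict, and missing it does not show that same-numbered arrays share nothing. Same-numbered arrays had a mean correlation of deviations of 0.31 (-0.47 to 0.95) in the lysates and 0.27 (-0.15 to 0.67) in the IP. Between arrays of other numbers the means were -0.14 and -0.13, and 21 and 25 of 27 arrays correlated best with their own number. A part shared by replicate number was thus present, and the main fits leave it out. The labels do not say what the numbers share. With the replicate block, the lysate counts of called lysosome genes were 11 with miR-16, 12 with miR-195, 10 with miR-107-mut1, 8 between the seeds, 13 for miR-107 against miR-107-mut1 and 1 against miR-107-mut2. The IP counts with the block were 4 with miR-103, 10 with miR-107, 3 with miR-16, 2 with miR-195, 5 with miR-15b*, 1 with either altered molecule and between the seeds, and 8 for miR-107 against miR-107-mut1. The block moved 15 of 24 counts by over 1.5 times. For the alternative fits, here and below, the share of all genes called is not given. Their counts are therefore not read as particular to lysosome genes.

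Fits on only the arrays compared gave lysate counts of 3 with miR-103, 10 with miR-107, 3 with miR-16, 1 with miR-320, 0 with miR-15b*, 11 with miR-107-mut2 and 3 between the seeds, and IP counts of 3 with miR-103, 6 with miR-107, 0 with miR-320 and 1 between the seeds. After cyclic loess the IP counts were 2 with miR-16 and 1 each with miR-195, miR-15b*, miR-107-mut1, miR-107-mut2, between the seeds and for miR-107 against miR-107-mut2, and the changes between fractions gave 5 calls with miR-103 and miR-107 and 1 with miR-16 and miR-195. The IP count with miR-107 was 1 with no filter, with trended and robust moderation, against the mean of 3 controls and without the 5 outlying arrays; with miR-107-mut1 it was 1 against the mean of 3 controls. Leaving out the 5 outlying arrays, an alternative chosen after seeing the data, gave lysate counts of 10 with miR-103, 10 with miR-195, 7 with miR-15b*, 10 with miR-107-mut1, 11 with miR-107-mut2 and 1 for miR-107 against miR-107-mut2, IP counts of 1 with miR-16 and 2 with miR-320, and 5 and 1 calls for the changes between fractions. The filter of the lowest 60% and the mean of probe sets moved 0 of 24 counts.

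With each array left out, the lysate counts ranged from 3 to 5 with miR-103, 4 to 5 with miR-107, 5 to 12 with miR-16, 4 to 5 with miR-195, 1 to 2 with miR-320, 1 to 3 with miR-15b*, 3 to 4 with miR-107-mut1, 5 to 6 with miR-107-mut2, 4 to 7 between the seeds and 4 to 7 for miR-107 against miR-107-mut1. The IP counts ranged from 0 to 2 with miR-107, 0 to 1 with miR-16, miR-320 and between the seeds, 0 to 14 with miR-15b* and 2 to 3 for miR-107 against miR-107-mut1. The changes between fractions ranged from 1 to 6 and 0 to 1. With 3 arrays per group, a gene that was not called is not shown to be unchanged.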
